A study of Mus musculus with 4 samples.

Results

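Collagen chain genes were described across the cell classes of the mouse lateral septum (LS), a forebrain region built mostly of GABAergic neurons. The members were all genes whose symbol is Col, a number, the letter a and a number, and 44 of the 32285 genes in the files met this rule. They comprised 11 genes of fibrillar chains, 9 of fibril-associated collagens with interrupted triple helices (FACIT), 6 of basement membrane type IV, 6 of beaded filament type VI, 4 of transmembrane collagens, 3 of short chain networks, 2 of multiplexins, the anchoring fibril gene Col7a1, and Col26a1 and Col28a1.

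Collagens are extracellular proteins in which 3 chains wind into a triple helix, and each helical stretch is a run of triplets that begin with glycine. Fibrillar chains build the fibers of connective tissue, type IV chains build the sheet of basement membranes, type VI chains form microfilaments, and transmembrane collagens sit in the plasma membrane and can be shed. In the brain, vascular and meningeal cells are the textbook source of type I, III and IV chains, while Col25a1 encodes a transmembrane collagen of neurons first found in amyloid plaques. Chains are hydroxylated and folded inside the cell, cut by propeptidases outside it, and bound by integrins and discoidin domain receptors.

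The triplet rule could be read in the coding sequence of all 44 members. The longest uninterrupted run of glycine-first triplets was 216 to 344 triplets in the fibrillar genes (median 338 of 11 genes), and 39 to 66 triplets in the type IV genes. It was 37 to 87 triplets in the type VI genes, 32 to 113 in the FACIT genes and 40 to 56 in the transmembrane genes. The first 10 triplets of the longest run are printed for 4 genes that the results describe at length, 1 each of neurons, LS neurons, astrocytes and microglia, 5′ to 3′ from the GENCODE coding sequences, with the glycine codons in capitals.
Col25a1 (codons 189 to 218): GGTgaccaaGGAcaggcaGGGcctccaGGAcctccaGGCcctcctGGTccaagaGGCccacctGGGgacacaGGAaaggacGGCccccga
Col6a3 (codons 1558 to 1587): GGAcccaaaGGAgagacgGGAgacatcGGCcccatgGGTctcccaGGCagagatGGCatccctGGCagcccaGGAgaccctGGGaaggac
Col1a2 (codons 97 to 126): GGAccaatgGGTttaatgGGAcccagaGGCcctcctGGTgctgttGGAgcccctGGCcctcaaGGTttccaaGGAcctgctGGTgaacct
Col27a1 (codons 673 to 702): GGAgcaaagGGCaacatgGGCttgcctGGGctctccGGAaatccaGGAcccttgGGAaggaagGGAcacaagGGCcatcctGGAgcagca
In each stretch a glycine codon is followed by 2 others that vary between the genes.

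Single-nucleus RNA sequencing of the LS was carried out in 4 libraries, each of 3 pooled male mice that were 6 to 8 weeks old per the labels. The C57J group (C57BL/6JNifdc) had 2 libraries, the nude group (BALB/c nude, which lack Foxn1 and therefore a thymus and T cells) had 1, and the BALB/c group had 1. C57J 1 was batch 1 and the other 3 libraries were batch 2 in the labels, so batch 1 held C57J mice only. The mice of a library cannot be separated, so no p-value here measures the spread between mice. Those between classes rest on the spread that remains after differences between libraries are taken out as a block. Those between backgrounds rest on the spread between the 2 C57J libraries, which differ in batch, and between the nude and BALB/c libraries, which differ in genotype. No group had replicate libraries of the same batch. The tests between backgrounds joined the nude and BALB/c libraries, since neither group could be tested alone.

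The libraries held 72912922 to 125998527 UMIs, and 10913 to 13075 nuclei per library were used, with a median of 4156 to 8424 UMIs per nucleus. The BALB/c library was the deepest. Between 133 and 185 barcodes of a library also occurred in another one. Clusters were built without the 44 members and without 151 genes that separated the backgrounds in these same libraries. They were named from markers as neuron-like, astrocyte-like, oligodendrocyte-like, oligodendrocyte precursor-like (OPC), microglia-like and so on, and these classes are called neurons, astrocytes, oligodendrocytes, OPCs and microglia below. The class of neurons joins the neuron clusters that could be given a type and leaves out the unnamed ones. Vascular nuclei were nearly absent, since 35 nuclei in all formed the endothelial-like class. Its endothelial markers had 55 UMIs of Slco1a4, 34 of Flt1, 23 of Mecom, 7 of Cldn5, 3 of Pecam1 and 0 of Cdh5. Mural markers were found in it too, with 25 UMIs of Atp13a5, 11 of Rgs5, 4 of Abcc9, 3 each of Pdgfrb and Notch3, and 0 each of Kcnj8 and Acta2. No fibroblast-like cluster was found. Free RNA was gauged from 5 neuron markers (Snap25, Syt1, Rbfox3, Celf4 and Meg3), which reached 14.8 to 39.7% of their neuron level in astrocytes, 15.7 to 45.3% in oligodendrocytes, 13.2 to 49.3% in OPCs and 22.3 to 60.1% in microglia, as means of the 4 libraries. In all 20 pairs of marker and glial class the BALB/c library was lowest, for example at 7.62 to 22.4% in astrocytes. A member of neurons that fell within or below these ranges in glia was read as background there.

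Levels are counts per 1000000 (CPM), the raw UMIs of a gene over all UMIs of its class in a library, and library values are given in the order C57J 1, C57J 2, nude, BALB/c. LS neurons had 848 CPM of the LS marker Trpc4 and 963 of the LS marker Dgkg, against 89.1 and 167 in striatal neurons. Both markers also served to name the clusters, so these levels do not check the labelled tissue. All 44 members had UMIs, from 29 of Col3a1 to 230860 of Col25a1, and 14 members had under 500. Col25a1 alone supplied 63.8% of the 362034 member UMIs. Together the members made up 0.129 to 0.145% of the UMIs of neurons. A mean level of 20 was reached by 17 members in at least 1 class other than vascular nuclei. Neurons held the highest mean of 14 members, OPCs of 11, astrocytes of 10, microglia of 5 and oligodendrocytes of 4. Every library of the leading class was above every library of the other 4 classes for 6 members of neurons, 6 of OPCs, 3 of astrocytes, 2 of microglia and 0 of oligodendrocytes. These counts by leading class were not made over all genes, so they do not set the members apart from other genes.

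**Figure D1:**
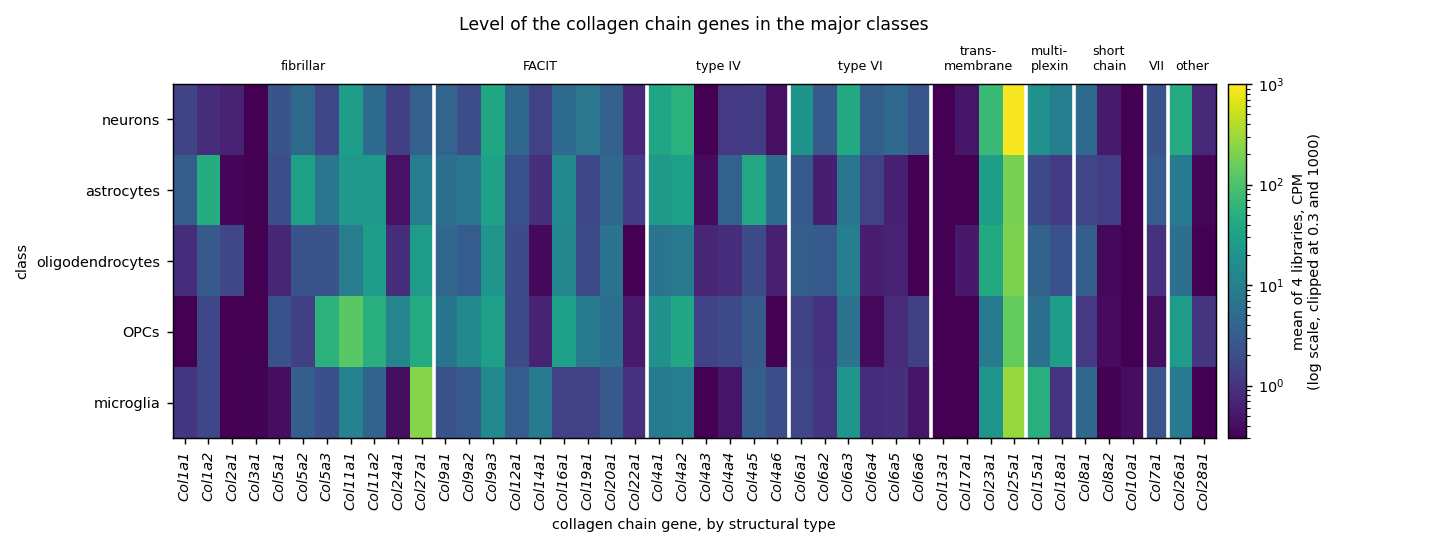
Mean level of each of the 44 members (columns, by structural type) in 5 classes (rows), in CPM on a log color scale that is clipped at 0.3 and 1000. Col25a1 is brightest in neurons, Col27a1 in microglia, Col11a1 in OPCs, and Col1a2 and Col4a5 in astrocytes.

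Which members differed between classes was tested on UMIs summed per library and class, each class against the mean of the others with the library as a block. With vascular nuclei in the fit, 29 members of 14917 genes could be tested. Of these, 15 were higher and 2 lower in neurons, where 29.7% and 10.7% of all genes were called. In OPCs 11 were higher and 3 lower (16% and 3.41% of all genes), and in astrocytes 8 were higher and 1 lower (19.8% and 5.44%). Oligodendrocytes had 1 higher and 3 lower (18.1% and 7.33%), microglia 2 higher and 4 lower (16.6% and 7%), and vascular nuclei 0 and 0 (0.328% and 2.57%).

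The few vascular nuclei shifted the whole comparison, with a median log2 fold change over all genes of 0.49 in neurons and -1.25 in vascular nuclei. A fit without them, chosen after the data were seen, brought the medians to between -0.09 and -0.02, and it tested 26 members of 14637 genes. In this fit, 13 members were higher and 7 lower in neurons (25.1% and 26.4% of all genes), 10 and 7 in astrocytes (18.9% and 16.3%) and 11 and 6 in OPCs (15.2% and 11.1%). Oligodendrocytes had 4 higher and 10 lower (14.8% and 22%) and microglia 2 and 9 (16.1% and 18.9%). The members' median log2 fold change was 0.70 in neurons, 0.42 in OPCs, 0.03 in astrocytes, -0.60 in oligodendrocytes and -1.24 in microglia. Both fits shared 13 of the higher calls in neurons, 11 in OPCs, 7 in astrocytes, 2 in microglia and 1 in oligodendrocytes. Fold changes between classes are given on the log2 scale, from the fit without vascular nuclei, with their standard errors and edgeR adjusted p-values.

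Of the 4 transmembrane genes, Col25a1 and Col23a1 were the neuronal ones, and Col13a1 and Col17a1 stayed below a mean of 1 CPM in each of the 5 classes. Col25a1 (chr3:130131501-130599877, plus strand, mm10) had 972, 876, 960 and 871 CPM in neurons. Its levels in LS neurons were 1183, 1028, 1099 and 1038, against 320, 287, 311 and 280 in striatal neurons. All libraries of LS neurons were thus above all of striatal neurons, and no library stood apart. Col25a1 was higher in neurons than in the mean of the other classes by 2.56 ± 0.13 (log2, SE, adjusted p = 5.84e-12). In glia it reached 20.1% of its neuron level in astrocytes, 21.7% in oligodendrocytes, 15.9% in OPCs and 30.5% in microglia, all within the ranges of the neuron markers. Its glial level was lowest in the BALB/c library in each of these classes, as were the levels of all 5 neuron markers, for example 191, 210, 260 and 85.4 of Col25a1 in astrocytes.

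Col23a1, the other neuronal transmembrane collagen, had 83.2, 85.9, 74 and 60.7 CPM in neurons. It was called higher in neurons (2.09 ± 0.26, adjusted p = 9.5e-07) and also in oligodendrocytes (0.90 ± 0.31, adjusted p = 0.0222). The oligodendrocyte call was not made with vascular nuclei in the fit (edgeR adjusted p = 0.0652), where the fold change without the BALB/c library was 0.23 (edgeR adjusted p = 0.646). The oligodendrocyte values were 24.3, 28.9, 22.3 and 87.9, so that the BALB/c library stood far above the other 3. This was seen in both large oligodendrocyte clusters, with 27.7, 34.6, 22.2 and 106 in the one led by Ptgds and 15.3, 15.2, 15.7 and 75.6 in the one led by Anln. With 1 BALB/c library it could not be tested, and the nude library, of the same strain background, did not share it. Whether intronic reads were counted is not given in the sources used here, and levels per gene length, which includes introns, depend on it. Scaled in this way, Col25a1 had 19.6 CPM per 10 kb of gene in neurons and Col23a1 had 2.58.

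Among the 6 type VI genes, Col6a1, Col6a2 and Col6a3 encode the chains of the classic heterotrimer, and Col6a4, Col6a5 and Col6a6 encode chains that can take the place of the third. Col6a1 and Col6a3 lay in different neurons. Col6a1 had 190, 162, 192 and 153 CPM in striatal neurons and 8.22, 6.76, 6.78 and 5.67 in LS neurons. Col6a3 showed the opposite order, with 53.2, 48.6, 57 and 51.5 in LS neurons and 5.72, 5.33, 6.84 and 2.94 in striatal neurons. The partner Col6a2 had a mean of 3.15 in LS neurons and 2.57 in striatal neurons. Against the other classes, Col6a1 was higher in neurons by 3.44 ± 0.20 (adjusted p = 3.03e-11) and Col6a3 by 2.30 ± 0.15 (adjusted p = 2.19e-10). Scaled to gene length, Col6a1 reached 100 CPM per 10 kb of gene in striatal neurons, against 6.39 for Col25a1 there. Col6a1 varied between libraries in neurons taken as a whole (33.6, 17.4, 13.9 and 14.1), C57J 1 being highest, while its striatal levels overlapped between backgrounds. Striatal neuron-like nuclei were also most numerous in C57J 1. The cluster led by Rarb held 778, 396, 253 and 301 of them and the one led by Tshz1 479, 254, 198 and 112. The one led by Gm12068, whose name is uncertain, held 318, 50, 22 and 24. How far this mix of neuron types sets the level of Col6a1 in neurons was not tested.

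The 6 type IV genes lie head to head in 3 pairs. Col4a1 and Col4a2 (chromosome 8) overlap by 22 bases at their starts, Col4a3 and Col4a4 (chromosome 1) lie 0.071 kb apart, and Col4a5 and Col4a6 (chromosome X) 1.308 kb apart. Col4a1 and Col4a2, which build the common basement membrane molecule, were highest in neurons among the main classes, with vascular nuclei and the small classes left out. Col4a1 had 29.6, 34.3, 37.7 and 38.9 CPM there, and Col4a2 had 48.9, 46.6, 55.8 and 65.1. Every library of neurons was above every library of astrocytes, OPCs, oligodendrocytes and microglia for both genes. The fold changes were 1.72 ± 0.14 for Col4a1 (adjusted p = 1.77e-09) and 1.88 ± 0.13 for Col4a2 (adjusted p = 4.51e-10). As means of the 4 libraries, astrocytes had 68.9% and 53.7% of the neuron level of Col4a1 and Col4a2, and OPCs 53.4% and 73.6%. These means were above the ranges of the neuron markers. In the nude library alone, Col4a1 in OPCs (43.2%) and Col4a2 in astrocytes (41.8%) lay within the marker ranges of that library (18.5 to 48.9% and 15.5 to 46.8%). In oligodendrocytes and microglia both genes stayed between 15.5 and 24.3%, and both were called lower in both classes.

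Col4a5 and Col4a6, whose chains can join in a single molecule, were higher in astrocytes. Col4a5 had 36.9, 39.1, 36.2 and 47.7 CPM in astrocytes and at most 5.43 in any library of the other 4 classes. It was higher by 4.24 ± 0.26 (adjusted p = 5.21e-11). Col4a6 had 3.81, 2.76, 4.05 and 10.1, a rise of 3.13 ± 0.39 (adjusted p = 1.67e-06), and its BALB/c value in microglia (6.21) rested on 5 UMIs. Col4a3 and Col4a4, the partners of Col4a5 in the kidney, stayed at means of at most 1.53 and 3.77 in the 5 classes. Because Col4a5 and Col4a6 rose together in astrocytes, the 250 bases before each RefSeq start (GRCm38.p6) are shown, 5′ to 3′ on the strand of the gene. The first RefSeq entry was taken for Col4a5, and its window reaches partly into the gene as placed by GENCODE.
Col4a5 (chrX:141475169-141475418, plus strand): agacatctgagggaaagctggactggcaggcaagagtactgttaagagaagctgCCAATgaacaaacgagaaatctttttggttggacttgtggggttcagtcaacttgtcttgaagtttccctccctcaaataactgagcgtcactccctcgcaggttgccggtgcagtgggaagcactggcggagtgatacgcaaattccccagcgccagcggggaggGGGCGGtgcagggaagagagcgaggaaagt
Col4a6 (chrX:141474077-141474326, minus strand): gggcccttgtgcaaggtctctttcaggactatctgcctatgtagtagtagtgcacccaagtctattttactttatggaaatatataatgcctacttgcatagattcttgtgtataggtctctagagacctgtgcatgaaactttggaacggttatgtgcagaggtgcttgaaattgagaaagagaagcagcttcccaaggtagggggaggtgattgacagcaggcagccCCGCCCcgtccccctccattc
Capitals mark matches to the TATA box (TATAAA), the CCAAT box (CCAAT) and the GC box (GGGCGG), searched on both strands, and no 2 matches overlapped. Col4a5 held 1 CCAAT box and 1 GC box, and Col4a6 held 1 GC box. Of 32851 promoter windows in the table, 12.4% held TATAAA, 33.8% CCAAT and 32.7% GGGCGG. Of the 44 members, 35 had an entry there.

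Of the 11 fibrillar genes, those that reached 20 CPM were highest in OPCs, astrocytes or microglia among the main classes, with vascular nuclei left out. In OPCs, Col5a3 (48, 46.8, 67.5 and 57.9), Col11a1 (120, 104, 132 and 153) and Col11a2 (61.5, 47.7, 52 and 38.4) were high in all 4 libraries. Col5a3 had at most 11.7 and Col11a1 at most 36 in any library of the other 4 main classes, whereas Col11a2 reached 43.2 in the nude oligodendrocytes. The rise in OPCs was 4.39 ± 0.18 for Col5a3 (adjusted p = 2.76e-13), 3.16 ± 0.21 for Col11a1 (adjusted p = 5.37e-10) and 2.35 ± 0.17 for Col11a2 (adjusted p = 1.62e-09). Col24a1, a fibrillar chain of developing bone and cornea, was lower in level (12.2, 10.2, 11.6 and 13.8) and rose by 4.28 ± 0.42 (adjusted p = 1.57e-07). Col11a1 and Col11a2 join in one molecule in cartilage, where the third chain comes from Col2a1, and Col2a1 had a mean of 0.0905 in OPCs.

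Col11a2 was also higher in oligodendrocytes (1.16 ± 0.17, adjusted p = 1.81e-05) and in astrocytes (0.83 ± 0.17, adjusted p = 0.000473). Its values were 24, 19.4, 43.2 and 21.7 CPM in oligodendrocytes and 22, 16.8, 35.5 and 18.8 in astrocytes, the nude library being highest in both. Col1a2, a chain of type I collagen, was an astrocyte gene with 51.1, 41.6, 34.5 and 57.1, against at most 4.36 in any library of the other 4 main classes. It rose by 4.88 ± 0.19 (adjusted p = 1.36e-13). Its partner Col1a1, which makes up most of type I collagen in connective tissue, had a mean of 3.27 in astrocytes, and Col3a1, a companion of type I in vessels and skin, had 0.0727. Col5a2 followed Col1a2, with 29.6, 30.9, 26.9 and 31.1 in astrocytes and a rise of 3.45 ± 0.22 (adjusted p = 1.04e-10), while its partner Col5a1 had a mean of 2.1 there. Some neuron clusters had Col5a2 at a like level. Its mean was 27.2 in the LS cluster led by Tafa1 and Kynu (20.8 to 33) and 27.1 in the Lhx6 cluster led by Sox6. Per 10 kb of gene, Col1a2 had 12.5 CPM in astrocytes, Col5a2 had 2.3 and Col4a5 had 1.87.

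Astrocyte clusters differed in these genes. Col1a2 had 76, 60.9, 65.9 and 98 CPM in the cluster led by Frem1, and 77.2, 47.2, 77.3 and 66.7 in the one led by Veph1 and Adamts18. The cluster led by B230323A14Rik and Lrig1 was below all of these libraries with 16.5, 16.9, 6.32 and 11.7. Col5a2 was highest in the Veph1 cluster (50.8, 77.1, 74 and 99) and lowest in the Lrig1 cluster (15.5, 14.3, 9.48 and 7.38). Col4a5 was more even, with cluster means of 36.9 to 59.4. These are descriptions of clusters made from the same nuclei and were not tested.

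Col27a1, a fibrillar chain of cartilage, was the leading collagen gene of microglia once Col25a1 was set aside. Col25a1 had 311, 294, 402 and 127 CPM there and was read as background by the rule above. The levels of Col27a1 in microglia were 173, 156, 251 and 337 CPM, against 4.18, 3.24, 3.91 and 3.31 in neurons. It was higher in microglia by 3.69 ± 0.18 (adjusted p = 2.89e-12) and in OPCs by 1.15 ± 0.21 (adjusted p = 0.000214). It was lower in neurons (-3.14 ± 0.21, adjusted p = 2.22e-10). The microglial level was 18.9 CPM per 10 kb of gene, near the 19.6 of Col25a1 in neurons. Col15a1, a multiplexin of basement membrane zones, was also highest in microglia among the main classes other than vascular nuclei, with 38.9, 37.9, 64.3 and 52.2. Its rise there was 2.95 ± 0.22 (adjusted p = 2.11e-09). It was also higher in neurons (1.61 ± 0.15, adjusted p = 2.13e-08), at 19.7, 19.6, 19.6 and 12.8. Within neurons, the LS cluster led by 2310002F09Rik and Matn2 had 101 to 110 CPM of Col15a1, above every library of microglia. These microglial values rest on 585 UMIs of Col27a1 and 118 of Col15a1.

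**Figure D2:**
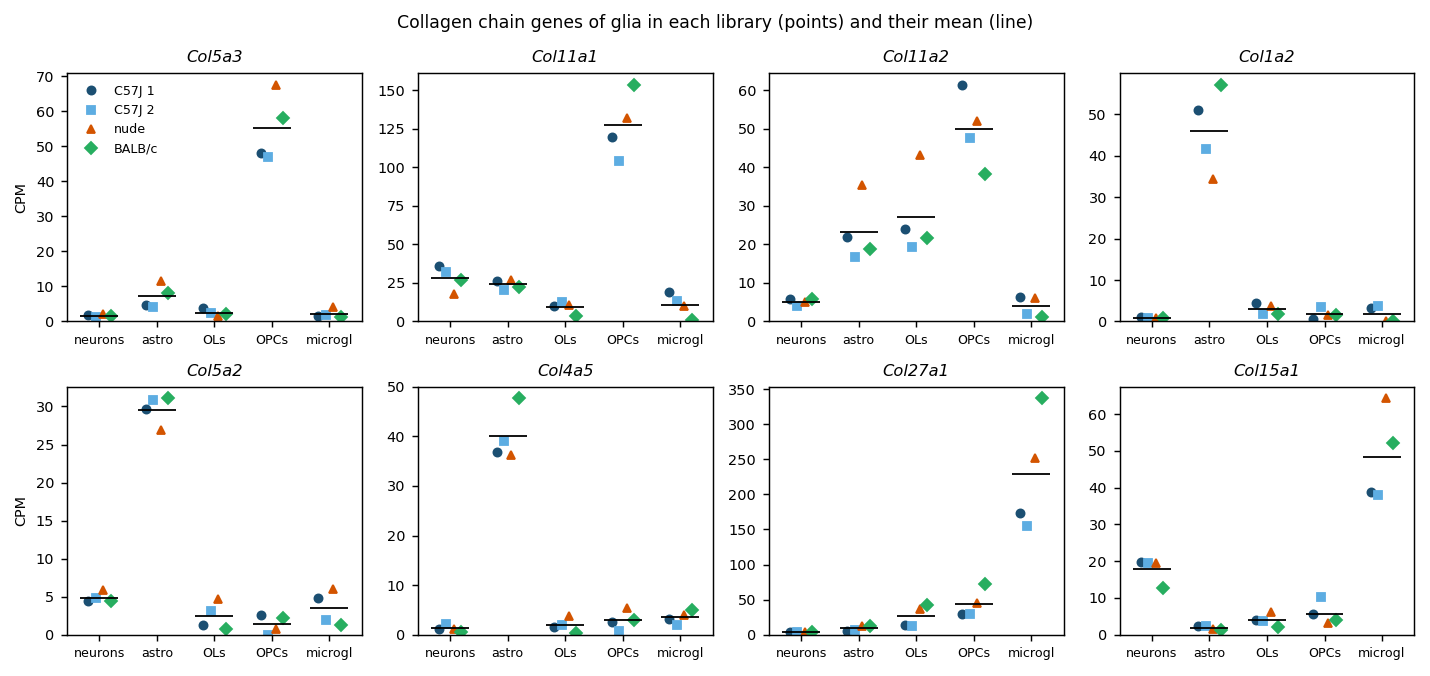
Level of 8 members in 5 classes, in CPM, with 1 point per library and a line at the mean of the 4 libraries (astro, astrocytes; OLs, oligodendrocytes; microgl, microglia). Col5a3, Col11a1 and Col11a2 peak in OPCs, Col1a2, Col5a2 and Col4a5 in astrocytes, and Col27a1 and Col15a1 in microglia.

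The second multiplexin, Col18a1, whose tail yields endostatin, was highest in OPCs among the 5 classes, with 30.1, 28.1, 14 and 36.6 CPM. The nude library was lowest, yet all 4 were above the class of neurons (10.9, 8.66, 10.5 and 9.44). Single neuron clusters were higher than OPCs by mean. The LS cluster led by Esr1 had a mean of 53.6 and the one led by Dach2 and Tafa1 47, against 27.2 in OPCs. Col18a1 rose by 3.80 ± 0.29 in OPCs (adjusted p = 4.63e-09) and by 2.02 ± 0.28 in neurons (adjusted p = 2.72e-06). Col26a1, a collagen-like gene outside the main types, had 50.9, 55.1, 37.9 and 34.8 in neurons and 34.6, 27.2, 22.5 and 17.4 in OPCs. It was called higher in neurons (2.40 ± 0.13, adjusted p = 1.55e-11) and in OPCs (1.28 ± 0.18, adjusted p = 1.97e-05), and its OPC level was 56.6% of its neuron level. The other gene outside the types, Col28a1, had a mean of at most 1.07 in the 5 classes.

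Of the 9 FACIT genes, whose chains decorate the surface of fibrils, Col9a3 and Col16a1 reached 20 CPM. Col9a3 was broad, with 42.7, 42, 33.3 and 33.5 in neurons, 31.9, 31.9, 38.5 and 21.4 in astrocytes and 35.9, 30.7, 26.4 and 24.3 in OPCs. These ranges overlapped, although Col9a3 was called higher in neurons against the mean of the other classes (0.92 ± 0.13, adjusted p = 3.21e-06). Its partners in type IX collagen were lower, Col9a1 with a mean of 4.19 in neurons and Col9a2 with 2.05. Col9a2 rose in OPCs (14.2 ± 4.12, SD, n = 4 libraries, log2 fold change 2.21, adjusted p = 4.6e-07). Col16a1 had 33.3, 33.2, 24.8 and 27.1 in OPCs, above every library of the other 4 main classes, and rose there by 2.37 ± 0.22 (adjusted p = 5.77e-08) and in astrocytes by 0.91 ± 0.22 (adjusted p = 0.00231). With vascular nuclei in the fit, the astrocyte call of Col16a1 was lost when any 1 library was left out (edgeR adjusted p = 0.0528 to 0.275). The remaining FACIT genes Col12a1, Col14a1, Col19a1, Col20a1 and Col22a1 had class means of at most 8.48, and among these Col14a1 in microglia came mostly from the BALB/c library (23.6).

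The 3 short chain genes and Col7a1 were low in the 5 classes. Col8a1, a chain of hexagonal networks in vessel walls and the eye, had a mean of 5.15 ± 0.482 in neurons (SD, n = 4) and was called higher there by 1.42 ± 0.23 (adjusted p = 1.87e-05). That call is against the mean of the other classes. The neuron libraries (4.69 to 5.82) overlapped with those of microglia (3.73 to 5.69), and the nude oligodendrocytes had 6.17. The partner of Col8a1, Col8a2, had 0.543 in neurons. Col10a1, the growth plate collagen, and Col7a1, of the skin, had means of at most 0.405 and 3.18 in the 5 classes.

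Vascular nuclei, the textbook source of type IV collagen, could hardly be judged. Their 35 nuclei held 55958 UMIs, of which 49 were of members and 25 of members other than Col25a1. Col4a2 had 5 UMIs and Col9a3 had 4. A total of 27 members had 0 UMIs, which at this depth allowed a level of up to 53.6 CPM, counting error only. A difference of most members from other classes was thus not detectable.

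The genes that act on collagens were 29 that modify and process the chains, 11 receptors and 8 proteases. Of these, 37 could be tested between classes without vascular nuclei. In OPCs 13 were higher and 2 lower (15.2% and 11.1% of all genes), led by the proteases Mmp2 (4.44 ± 0.33, adjusted p = 2.51e-09), Mmp15 (3.84) and Mmp16 (2.55). In astrocytes 13 were higher and 7 lower (18.9% and 16.3%), led by the membrane protease Mmp14 (2.98), the collagen-binding integrin Itga1 (2.86) and the prolyl hydroxylase P4ha2 (2.75). In microglia 10 were higher and 10 lower (16.1% and 18.9%), led by the inhibitory collagen receptor Lair1 (5.67 ± 0.17, adjusted p = 2.1e-15), the prolyl hydroxylase P3h2 (3.85) and Mmp2 (2.95). In neurons 11 were higher and 14 lower (25.1% and 26.4%), led by the propeptidase Tll1 (2.11), the integrin Itga11 (1.86) and P4ha3 (1.80). In oligodendrocytes 6 were higher and 18 lower (14.8% and 22%), led by the propeptidase Adamts2 (3.54), the discoidin domain receptor Ddr1 (2.79) and the lysyl hydroxylase Plod1 (1.99). With vascular nuclei in the fit, 37 of these genes were also tested. There 10 were higher and 0 lower in OPCs (16% and 3.41% of all genes), and 11 and 4 in astrocytes (19.8% and 5.44%). Microglia had 12 higher and 3 lower (16.6% and 7%), neurons 8 and 8 (29.7% and 10.7%) and oligodendrocytes 6 and 8 (18.1% and 7.33%). Vascular nuclei had 1 higher, Itga1, and 0 lower (0.328% and 2.57%).

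All neuron nuclei were split into 27 clusters, of which 17 were LS neuron-like, 3 striatal neuron-like, 2 Lhx6 GABA neuron-like, 1 glutamatergic, 1 cholinergic and 3 unnamed. The 3 unnamed clusters (1287, 1110 and 810 nuclei) are not part of the class of neurons used above. Levels by cluster are a description without a test. Col25a1 ranged widely between clusters, from 63.5, 80, 98.2 and 82.9 CPM in cholinergic neurons to 1983, 1896, 2063 and 1980.5 in the LS cluster led by Etv1 and Nts, among the 26 clusters reported. The LS cluster led by Drd3 and Gfra1 (mean 1799) came next among these, and its libraries overlapped with the first. LS neurons were not uniform, since the cluster led by Pax6 and Eya4 had 194, 192, 203 and 143.

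Only 4 members had a cluster whose lowest library exceeded every library of all other clusters at a mean of at least 20, as clustered here. Col15a1 was highest in the LS cluster led by 2310002F09Rik and Matn2 (110, 109, 105 and 101 CPM), followed by the one led by Hmcn1 and Met (67.8, 58.8, 75.5 and 76.8). Col27a1 was highest in the LS cluster led by Cpa6 and Mctp2 (30.8, 21.7, 37.5 and 43.6). Col11a1 peaked in a small cluster named striatal neuron-like and led by Gm12068 and Gpr149 (400, 362, 516 and 679), of whose 414 nuclei 318 were from C57J 1. Relative to the highest neuron cluster, the mean level of oligodendrocyte markers was 1.0 there and that of astrocyte markers 0.89. Both were above its striatal markers, so the name is uncertain. Col8a1 peaked in an unnamed cluster led by Onecut2 and Bnc2 (61, 58.4, 64.7 and 102), which lies outside the class of neurons. How many of all genes had such a cluster was not counted.

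Other members marked groups of clusters. The cluster led by Cpa6 and Mctp2 had the highest mean of Col23a1 (314, 271, 279 and 233) and Col6a3 (202, 187, 212 and 221), and the Matn2 cluster followed for Col23a1 (257, 211, 202 and 205). Col6a3 differed by background within the LS cluster led by Pde1c (136, 101, 259 and 290), which was not tested. Col4a1 and Col4a2 were both highest in that Pde1c cluster, with means of 91.5 and 117, and both lowest in the glutamatergic cluster led by Ebf2 and Ebf3, with 3.13 and 4.16. Col9a1 had its highest mean in the Ebf2 cluster (65.4, 76.7, 25.5 and 47.6). By mean, Col18a1 was highest in the LS cluster led by Esr1, the estrogen receptor gene (57.6, 35.7, 66.7 and 54.3). Col19a1 was highest in the Lhx6 cluster led by Sox6 and Meis1 (36.3, 52.6, 35.1 and 43.4), and Col26a1 in the LS cluster led by Stac2 and Met (124, 124, 98.3 and 88.8).

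**Figure D3:**
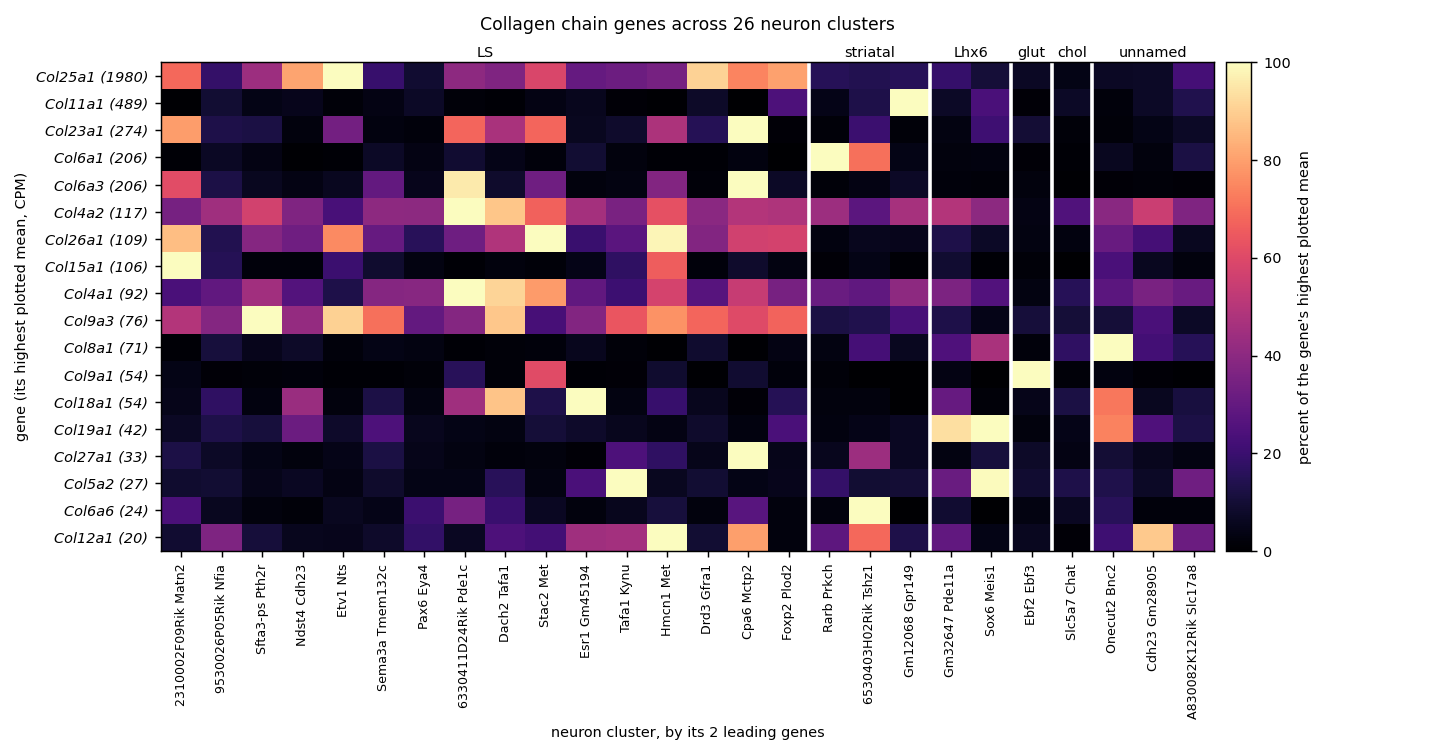
Level of the 18 members that reached 20 CPM in a neuron cluster (rows) across 26 of the 27 clusters (columns, by their 2 leading genes), as percent of the gene's highest plotted cluster mean, which stands in brackets. Col4a1 and Col4a2 share a broad pattern, while Col11a1, Col15a1 and Col8a1 are each bright in few clusters.

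The study compared C57J mice with nude and BALB/c mice, which share a strain background. In LS neurons 42 members could be tested, and 4 were higher (0.922% of all genes were) and 2 lower (1.34% of all genes) in nude and BALB/c. In neurons as a whole, 3 were higher (0.696%) and 1 lower (1.07%) of 42, and in striatal neurons 1 was higher (0.294%) and 0 lower (0.279%) of 22. The type VI genes Col6a4, Col6a5 and Col6a6 made up 7 of these 11 calls, with Col8a2, Col9a1 and Col26a1 as the others. LS and striatal neurons are part of neurons as a whole, so calls of the same gene in these classes are not separate results. Over all genes the median log2 fold change between backgrounds lay between -0.0222 and -0.0044 in the 7 classes compared.

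Col6a4 had 8.33, 5.5, 0.66 and 0.595 CPM in LS neurons, or 390, 201, 29 and 36 UMIs, so that both C57J libraries were far above the other 2. Its log2 fold change, nude and BALB/c minus C57J, was -3.45 ± 0.31 (adjusted p = 0.004). Col6a5 went the other way, with 1.77, 1.12, 8.12 and 8.32 (2.51 ± 0.27, adjusted p = 0.00681). Col6a6 had 1.09, 1.12, 3.98 and 4.02 in LS neurons (1.88 ± 0.23, adjusted p = 0.0111) and 0.467, 0.941, 24.6 and 8.59 in striatal neurons (4.65 ± 0.67, adjusted p = 0.0206). In neurons as a whole the fold changes were -3.44 for Col6a4, 2.19 for Col6a5 and 2.04 for Col6a6. No library of one background overlapped with the other for any of these values. Among neuron clusters, Col6a4 was lower in both the nude and BALB/c libraries than in both C57J libraries in 21 of 27, and Col6a5 was higher in 21 of 26. Col6a6 was higher in 11 of 26, lower in 3 and overlapping in 12, and the difference was widest in the striatal cluster led by Tshz1 (1.52, 2.77, 59.8 and 33.8). The clusters are parts of the same libraries, so these counts describe where a difference lay and are not separate results. They were made for called members only and not over all genes.

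These 3 genes are direct neighbors on chromosome 9, all on the minus strand, with Col6a6 at chr9:105687809-105828160, Col6a5 at chr9:105856078-105960643 and Col6a4 at chr9:105989454-106096783 (mm10). The gaps are 27.917 and 28.81 kb, with 0 genes between. In the coding sequences, 322 of the 7874 windows of 50 bases in Col6a5 also occur in Col6a6, and 0 of the 6881 windows in Col6a4 occur in either, so that reads of the first pair may be split or lost. The 250 bases before each RefSeq start (GRCm38.p6) are shown on the minus strand, with the same 3 boxes in capitals. The RefSeq starts of Col6a4 and Col6a6 lie inside the genes as placed above, so these 2 windows reach partly into the genes.
Col6a4 (chr9:106096692-106096941): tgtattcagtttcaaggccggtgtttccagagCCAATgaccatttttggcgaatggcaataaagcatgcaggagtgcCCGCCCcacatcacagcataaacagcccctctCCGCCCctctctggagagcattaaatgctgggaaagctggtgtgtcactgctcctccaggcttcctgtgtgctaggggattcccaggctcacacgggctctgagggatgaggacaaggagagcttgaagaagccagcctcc
Col6a5 (chr9:105960644-105960893): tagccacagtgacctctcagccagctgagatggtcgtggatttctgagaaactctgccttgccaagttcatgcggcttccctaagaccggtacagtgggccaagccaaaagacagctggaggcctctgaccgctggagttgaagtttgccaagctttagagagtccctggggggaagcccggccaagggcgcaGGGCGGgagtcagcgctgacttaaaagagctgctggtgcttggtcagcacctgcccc
Col6a6 (chr9:105828086-105828335): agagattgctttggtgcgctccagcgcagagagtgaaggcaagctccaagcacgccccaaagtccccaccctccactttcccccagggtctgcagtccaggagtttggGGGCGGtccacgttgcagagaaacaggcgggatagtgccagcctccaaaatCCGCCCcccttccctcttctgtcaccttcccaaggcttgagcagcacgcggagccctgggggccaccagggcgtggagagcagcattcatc
The window of Col6a4 held 1 CCAAT box and 2 GC boxes, that of Col6a5 held 1 GC box and that of Col6a6 held 2 GC boxes.

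**Figure D4:**
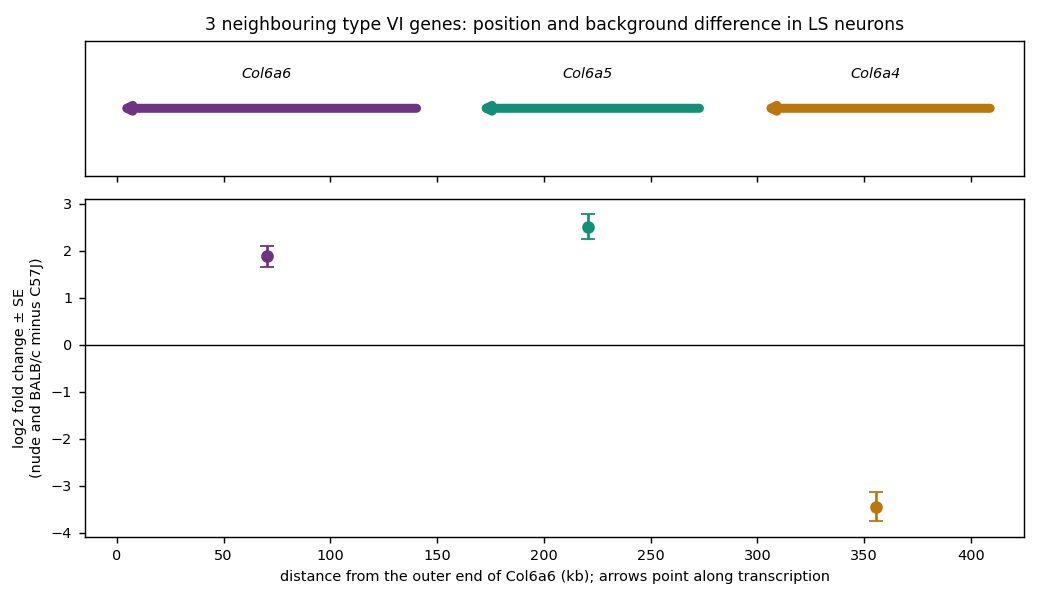
Position of Col6a6, Col6a5 and Col6a4 (arrows, in kb from the outer end of Col6a6, pointing along transcription) above their log2 fold change between backgrounds in LS neurons (points, with SE bars). Col6a6 and Col6a5 lie above 0, at 1.88 and 2.51, and Col6a4 below it, at -3.45.

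Of the other called members, Col8a2 rested on few reads, with 5, 6, 37 and 67 UMIs in LS neurons (0.107, 0.164, 0.842 and 1.11 CPM). It was higher by 2.88 ± 0.43 there (adjusted p = 0.0237) and by 2.74 ± 0.38 in neurons (adjusted p = 0.0258). Col9a1 was higher in LS neurons, with 1.2, 1.29, 5.14 and 6.37 (2.24 ± 0.24, adjusted p = 0.00681), and this was largest in the cluster led by Stac2 and Met (11.4, 7.17, 50.5 and 61.4). Among neuron clusters, Col9a1 was higher in both the nude and BALB/c libraries in 8 of 25, lower in 4 and overlapping in 13. In neurons as a whole it was not called (1.08, adjusted p = 0.138), and in the glutamatergic Ebf2 cluster both C57J libraries were above the other 2. Col26a1 was lower in LS neurons, by -0.57 ± 0.08 (adjusted p = 0.0222), with 64.2, 66.6, 44.4 and 42.3, and in 21 of 27 neuron clusters. The cluster counts of Col9a1 and Col26a1 come from the same libraries too and are not separate results.

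Leaving out C57J 1 left the comparison within batch 2, with 1 C57J library that is assumed to vary like the other 2. There 10 of the 11 calls in all classes were again made, the exception being Col8a2 in neurons (edgeR adjusted p = 0.058). In LS neurons the within-batch fold changes were -3.08 for Col6a4, 2.92 for Col6a5, 1.88 for Col6a6, 2.61 for Col8a2, 2.21 for Col9a1 and -0.57 for Col26a1. Without the BALB/c library 10 of the 11 were not called, with adjusted p-values from 0.0712 to 0.235, and Col6a6 in striatal neurons was. The fold changes in LS neurons without BALB/c were -3.37 for Col6a4, 2.49 for Col6a5, 1.87 for Col6a6, 2.66 for Col8a2, 2.07 for Col9a1 and -0.54 for Col26a1. Without the nude library 8 of the 11 were not called, and the LS neuron values were -3.49, 2.55, 1.91, 3.08, 2.40 and -0.58 in the same order. With nuclei thinned to 1000 UMIs, 6 of the 11 calls were again made, and Col6a6 was not called in neurons or LS neurons (edgeR adjusted p = 0.2 and 0.246). Col8a2 in neurons and in LS neurons and Col6a6 in striatal neurons could not be tested at this depth.

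**Figure D5:**
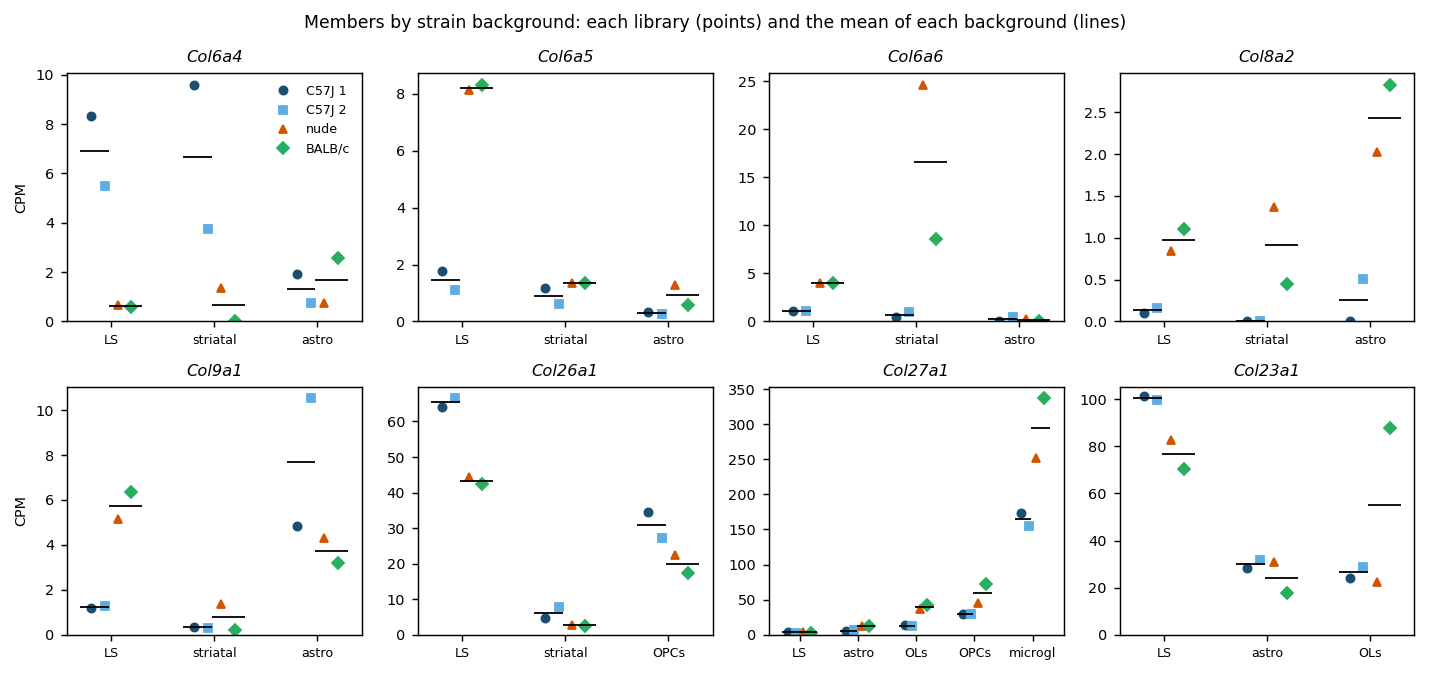
Level of 8 members by library (points) with the mean of the 2 C57J libraries and of the nude and BALB/c libraries (lines), in CPM. Col6a4 and Col26a1 are lower and Col6a5, Col6a6, Col8a2 and Col9a1 higher in LS neurons of nude and BALB/c mice, and Col23a1 stands out in the BALB/c oligodendrocytes.

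In glia 0 members were called between backgrounds by edgeR. Of all genes, 0.00709% were called higher and 0.0496% lower in astrocytes, 0.0238% and 0.0476% in oligodendrocytes, 0.156% and 0.156% in OPCs, and 0% and 0% in microglia. An unadjusted p under 0.05 was found for 3 of 26 members tested in astrocytes (7.54% of all genes), 4 of 19 in oligodendrocytes (5.36%), 5 of 17 in OPCs (7.51%) and 2 of 6 in microglia (5.13%). DESeq2 called 1 of these, Col27a1 in oligodendrocytes. The members with the widest differences among those whose libraries did not overlap were Col6a1 (-1.52, adjusted p = 0.5) and Col4a6 (1.23, adjusted p = 0.675) in astrocytes and Col6a2 (2.42, adjusted p = 0.472) and Col6a1 (-2.37, adjusted p = 0.544) in oligodendrocytes. In OPCs they were Col19a1 (2.05, adjusted p = 0.177) and Col20a1 (-1.19, adjusted p = 0.623), and in microglia Col9a3 (-1.64, adjusted p = 0.84) and Col27a1 (0.87, adjusted p = 0.875). Col6a1 was also highest in the C57J 1 neurons, and the neuron markers were lowest in the BALB/c glia. The part of free neuronal RNA in these glial values was not tested.

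Col27a1 was higher in the nude and BALB/c libraries than in both C57J libraries in each of the 4 glial classes, and is described here after its values were seen. It had 13.4, 12.9, 36.6 and 42.3 CPM in oligodendrocytes, 30.1, 28.9, 45.8 and 72.8 in OPCs and 5.54, 6.52, 12.7 and 12.4 in astrocytes. The differences were 1.65 ± 0.25 in oligodendrocytes (edgeR adjusted p = 0.132, DESeq2 adjusted p = 0.0205), 1.12 ± 0.27 in OPCs (adjusted p = 0.185), 1.13 ± 0.27 in astrocytes (adjusted p = 0.332) and 0.87 ± 0.30 in microglia (adjusted p = 0.875). In neurons, where Col27a1 was low, the difference was -0.03 ± 0.23 (adjusted p = 0.978). Its microglial level moved the same way, and the part of free microglial RNA in the other glial values was not tested.

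Whether background differences differed between classes was tested as a class by background term for 34 members in astrocytes, oligodendrocytes and OPCs against neurons. By edgeR 0 members were called, where 0.0455% of all genes were called higher and 0.052% lower in astrocytes, 0.0455% and 0.0975% in oligodendrocytes, and 0.0195% and 0.0065% in OPCs. An unadjusted p under 0.05 was found for 6, 6 and 5 members of 34, where 4.72%, 5.55% and 4.23% of all genes had one. DESeq2 called Col6a4 in astrocytes (3.94, adjusted p = 0.0382) and Col27a1 in oligodendrocytes (1.65, adjusted p = 0.0157). Among the genes that act on collagens, the discoidin domain receptor gene Ddr2 was lower in LS neurons of nude and BALB/c mice (-1.06 ± 0.12, adjusted p = 0.0098) and in neurons (-1.02 ± 0.14, adjusted p = 0.0238). Mmp15 was higher in their OPCs (1.03 ± 0.18, adjusted p = 0.0421).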

How the data were processed

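Nuclei of the LS were profiled with the 10x Genomics 3′ assay in 4 libraries. The authors aligned the reads to mm10 and counted UMIs with Cell Ranger 7.0.1, and the deposited matrices hold raw counts per gene and barcode that had not been normalized. The counting of introns is not given in the sources used here. The mm10 reference derives from C57BL/6J, and how completely BALB/c reads aligned was not tested.

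Barcodes with 200 to 6000 genes, 300 to 50000 UMIs and under 2% mitochondrial UMIs were kept, as in the study's methods, and predicted doublets were removed at 0.8% per 1000 barcodes. The libraries were clustered together (40 components of 3000 genes, 6 neighbors per library, Leiden resolution 1, leidenalg 0.10.2, Python 3.11.15) without the 44 members, and neurons and other nuclei were clustered again. Also left out of the clustering were 6 sex-linked genes, 13 mitochondrial genes and 151 genes that separated the backgrounds. In these 151, both C57J libraries lay apart from the nude and BALB/c libraries by more than 1 on the log2 scale. Clusters were named from marker lists. The endothelial-like cluster was clustered once more to remove nuclei that lacked vascular markers. UMIs were summed per library and class, with at least 5 nuclei.

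edgeR 4.0.16 (R 4.3.3; quasi-likelihood F test, filterByExpr, TMM, Benjamini-Hochberg over all genes tested) compared classes, with the library as block, and strain backgrounds within classes. A gene was called at an adjusted p under 0.05 and an absolute log2 fold change over 0.5. The standard errors given with edgeR fold changes were derived as the absolute log2 fold change over the square root of the F statistic. DESeq2 1.42.0, no TMM factors, no filter on low counts, other quality limits (over 500 genes and 1000 UMIs), doublets kept, nuclei thinned to 1000 UMIs, no block and leaving out each library were the alternatives. The tests were tested on simulated data. A level of 0 UMIs was given the limit of 3 counts.

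Library values are given for members that reached a mean of 20 CPM in a class. Fold changes are given for up to 6 members with the largest rise per class and every member called between backgrounds, or for the 2 widest without overlap where none was called. Further called members are named beside these for the chains they assemble with. One cluster of LS neurons is not reported here by itself. The 3 largest rises of other collagen pathway genes are named per class. Gene positions and coding sequences came from GENCODE vM21 on GRCm38, and promoters from RefSeq. The members, lists and tests were chosen with earlier results of these data known.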

Additional observations from a re-analysis of the deposited data

Results flagged for a closer look

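In 18 cases, each a member in a pair of classes and over 13 members in all, both the nude and BALB/c libraries moved one way from both C57J libraries in one class and the opposite way in the other, and the difference between the classes was not tested. The classes set against each other were neurons, astrocytes, oligodendrocytes, OPCs and microglia, and LS against striatal neurons. Such cases were not counted over all genes, so their number is not a result about the members. Fold changes (log2, nude and BALB/c minus C57J) are given for the classes in which the gene could be tested, and none of them was called by edgeR. Col15a1 had -0.26 in neurons and -0.68 in astrocytes, against 0.62 in microglia (38.9 and 37.9 CPM in C57J, 64.3 and 52.2 in nude and BALB/c), and it was lower in OPCs too. Col4a1 had 0.29 and Col4a2 0.36 in neurons and both were lower in microglia, on 19 and 23 UMIs there. Col4a5 had -0.97 in neurons and was higher in microglia, on 9 UMIs. Col11a1 had 0.43 in OPCs and was lower in microglia, on 25 UMIs. Col5a3 had 1.19 in astrocytes and 0.46 in OPCs and was lower in oligodendrocytes, on 35 UMIs. Col19a1 had 2.05 in OPCs and was lower in oligodendrocytes, on 25 UMIs. Col6a2 had 2.42 in oligodendrocytes and was lower in astrocytes, on 12 UMIs. Col12a1 had -0.89 in astrocytes and was higher in OPCs, on 13 UMIs. Col22a1 had 0.48 in neurons and was lower in OPCs, on 3 UMIs. Col2a1 had -1.07 in neurons and was higher in oligodendrocytes, on 25 UMIs. Col4a6 had 0.79 in LS neurons and was lower in striatal neurons, on 3 UMIs. The other 3 cases, of Col28a1 and Col22a1, had no fold change in either class. In 7 further cases, of Col4a1, Col4a2, Col4a5, Col9a1 and Col11a1 in neurons against glia, the difference was tested as a class by background term and none was called (edgeR adjusted p = 0.187 to 1).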

How the results depend on the processing

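The 50 calls between classes became 77 with DESeq2, 79 without vascular nuclei and 80 with DESeq2 without vascular nuclei, and leaving out each library gave 45 to 46. The 11 calls between backgrounds became 22 with no filter on low counts and 6 with nuclei thinned to 1000 UMIs, and leaving out each library gave 1 (without BALB/c) to 17 (without nude). In the comparison of backgrounds between classes, 0 calls became 2 with DESeq2, 12 with no filter on low counts and 3 with doublets kept, and leaving out each library gave 0 to 17, with 2 without BALB/c and 17 without nude. Of the members named by neuron cluster, 4 became 7 with another random seed of the clustering. The cause of these moves was not tested. Calls over all genes moved too. In neurons DESeq2 called 2657 genes higher and 4905 lower of 14917, against 4432 and 1602 in the main fit. Between backgrounds in LS neurons, no filter gave 449 higher and 605 lower of 26622 genes, against 172 and 250 of 18655. Without the nude library, calls over all genes also rose in glia and in the class by background terms. Of the single fold changes between classes, 355 kept direction and call under the alternatives, 13 were no longer called and 9 became called. Between backgrounds 86 kept both and 21 were no longer called, and 0 changed sign. The 38 levels at or above 20 CPM by class became 42 with doublets kept. No paired analysis was possible because the labels number only the C57J libraries. Depth limits the low members most, since 14 had under 500 UMIs in all.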

Other observations

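Small clusters outside the main classes also held members, at levels that rest on few nuclei. The 101 newly forming oligodendrocyte-like nuclei, of which 54 and 30 were from C57J libraries, had 242, 296, 43.1 and 111 CPM of Col9a3 in the order C57J 1, C57J 2, nude, BALB/c, against 12.8 to 27.4 in oligodendrocytes. They also had a mean of 85.5 of Col27a1 and 63.4 of Col9a1. The 33 ependymal-like nuclei had means of 108 of Col5a3, 106 of Col5a2 and 87.6 of Col4a1. Neuroblast-like and dividing nuclei had 74.9 and 39.5 of Col11a1, against 28.3 in neurons.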
